A study of Homo sapiens with 6 samples.

Results

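The genes of 8 transcription factors that build and maintain the pancreas, PDX1, PTF1A, SOX9, GATA4, GATA6, FOXA1, FOXA2 and HNF4A, were followed in PANC1 cells, among 20461 genes in the table. They were chosen by name as lineage factors, and each was found by its Ensembl identifier. RNA-seq was done on 2 cultures given vehicle (0.1% DMSO) and 2 given gemcitabine, a nucleoside analogue used against pancreatic cancer, at 50 nM, both for 48 h. DNaseI-seq, which maps open chromatin, was done on 1 vehicle and 1 gemcitabine culture. All 6 samples were of the same established line, PANC1, a human pancreatic ductal carcinoma line, without any genetic change made for the study, so every value describes 1 tumour line in culture.

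PDX1 and PTF1A specify the pancreas in the embryo. PDX1 is later used by beta cells and PTF1A by the enzyme-making acinar cells, while SOX9 keeps progenitors and marks adult ducts. GATA4 and GATA6 act in early pancreatic growth, FOXA1 and FOXA2 open chromatin for other factors, and HNF4A is a nuclear receptor of endoderm that is transcribed from an upstream and a downstream promoter. In pancreatic tumours, PDX1, GATA6 and HNF4A are known as marks of the better differentiated, classical state.

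The libraries held 13194533 to 15766237 fragments assigned to genes, and 3 fragments corresponded to 0.190 to 0.227 CPM (fragments scaled to a fixed library total). The cell type label was checked against duct, acinar and endocrine products. All 18 duct products matched had fragments, led by the keratins KRT7, KRT8 and KRT18 at means of 1549, 559 and 398 FPKM (fragments scaled to transcript length and library total). By contrast, 6 of 22 acinar products, PRSS1 among them, and 7 of 14 endocrine products, INS and GCG among them, had no fragment in any library. Of the duct products 11 of 18 reached a mean of 1 FPKM, and the duct transporters CFTR, SLC26A3 and SLC4A4 were low, at 0.025, 0.00436 and 0.29 FPKM, as was the adhesion gene CDH1 at 0.387 FPKM. The endocrine processing enzymes PCSK1 and PCSK2 and the channel subunit ABCC8 had RNA, at 13.2, 3.62 and 1.88 FPKM.

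Gemcitabine-treated cells held less PDX1 and slightly less GATA6 RNA by the edgeR quasi-likelihood test, while SOX9, FOXA1 and HNF4A did not pass it. GATA4, FOXA2 and PTF1A were at or next to 0 in both conditions. Of the 8 genes, 5 had at least 10 fragments over the 4 libraries and could be tested. None of them met the study's criteria for differential expression (adjusted p under 0.05, fold change over 1.5, a mean of at least 0.1 FPKM in 1 condition and a difference of at least 1 FPKM), where 10.1% of the 14854 genes tested did, 5.69% higher and 4.42% lower. PDX1 and HNF4A were under 1 FPKM in every library, so the last of these criteria was out of reach at their levels. At an unadjusted p under 0.05 in edgeR, 2 of the 5 passed, beside 47.2% of all genes tested. DESeq2 with the study's full criteria called 0 of the 5, beside 9.01%. By adjusted p alone 2 of the 5 were lower, PDX1 and GATA6. Of all genes tested 38.5% passed this rule, 18.5% higher and 20.0% lower. The conditions did not overlap in CPM for 4 of the 5, lower in 3 and higher in 1, and 69.7% of all genes tested did not overlap, 34.7% lower and 35.0% higher. In these bulk libraries, fewer cells of a type and less RNA per cell cannot be told apart.

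**Figure D1:**
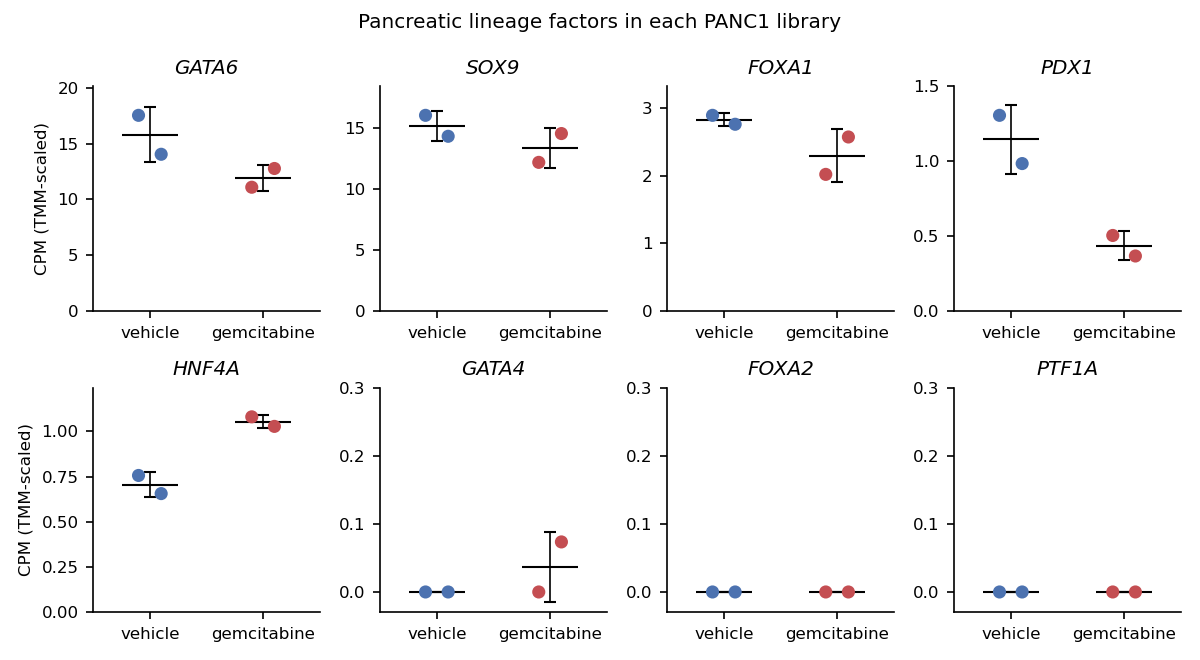
CPM of each factor in each RNA-seq library, scaled by TMM, an edgeR factor for library composition; points are libraries, lines the mean of 2 and bars the SD. PDX1 sits at 0.985 and 1.31 CPM in vehicle and at 0.367 and 0.504 CPM in gemcitabine, the SOX9 libraries overlap, and PTF1A and FOXA2 lie at 0 throughout.

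GATA6, a zinc-finger factor of endoderm, lies on chromosome 18 at 19749550 to 19782491 of hg19 (ENSG00000141448.4, plus strand). Under vehicle its fragments numbered 255 and 214, and under gemcitabine 154 and 174. Scaled by TMM these were 17.5 and 14.1 CPM against 11.1 and 12.8 CPM, and per length 7.97 and 6.10 FPKM against 5.16 and 5.72 FPKM. Both gemcitabine libraries lay under both vehicle libraries, and the vehicle pair was the more widely spread. GATA6 fell by 0.40 on the log2 scale (SE 0.14, edgeR adjusted p = 0.0346, n = 2 per condition), a fold of 1.32, which is under the study's limit of 1.5. GATA6 no longer passed by adjusted p without vehicle replicate 1 (log2 fold change -0.23), without vehicle replicate 2 (-0.55) and without gemcitabine replicate 1 (-0.30). It still passed without gemcitabine replicate 2 (-0.50). DESeq2 gave an adjusted p of 0.163.

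PDX1, the homeodomain factor of early pancreas and beta cells, lies on chromosome 13 at 28494137 to 28500450 (ENSG00000139515.5, plus strand). It was a low gene, with 19 and 15 fragments in vehicle and 7 and 5 in gemcitabine. The levels were 1.31 and 0.985 CPM against 0.504 and 0.367 CPM, and 0.517 and 0.377 FPKM against 0.213 and 0.154 FPKM. The lower vehicle library was above the higher gemcitabine library, at 15 and 7 fragments. PDX1 fell by 1.37 on the log2 scale (SE 0.49, edgeR adjusted p = 0.0397, n = 2 per condition), a fold of 2.59. It was not called because its mean FPKM differed by less than 1. The change rests on 46 fragments in all: its adjusted p was 0.240 by DESeq2 and ranged from 0.0537 to 0.173 by edgeR when each library was left out in turn.

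SOX9, the high-mobility-group factor of progenitors and ducts, lies on chromosome 17 at 70117161 to 70122557 (ENSG00000125398.5, plus strand). It held 233 and 218 fragments in vehicle and 169 and 198 in gemcitabine. The levels were 16.0 and 14.3 CPM against 12.2 and 14.5 CPM, so that gemcitabine replicate 2 lay between the vehicle libraries. The log2 fold change was -0.18 (SE 0.13, edgeR adjusted p = 0.293), within the spread between libraries.

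FOXA1, a forkhead factor that opens chromatin, lies on chromosome 14 at 38058757 to 38065264 (ENSG00000129514.4, minus strand). It held 42 fragments in each vehicle library and 28 and 35 in gemcitabine. Scaled, these were 2.89 and 2.76 CPM against 2.02 and 2.57 CPM. Both gemcitabine libraries were lower in CPM, but the log2 fold change of -0.30 (SE 0.28, edgeR adjusted p = 0.428) was about as large as its error. In FPKM the order was lost, with 1.25 and 1.68 FPKM in vehicle and 1.76 and 0.877 FPKM in gemcitabine. The gene overlaps TTC6, and the reads carry no strand, so fragments of these genes may be split between them. The annotation also places antisense RNAs over GATA6, SOX9 and HNF4A, whose reads cannot be told apart from those of the factors. TTC6 itself had only 4 and 6 fragments in vehicle and 10 and 11 in gemcitabine.

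HNF4A lies on chromosome 20 at 42984339 to 43061485 (ENSG00000101076.11, plus strand). It held 11 and 10 fragments in vehicle and 15 and 14 in gemcitabine, which are 0.757 and 0.657 CPM against 1.08 and 1.03 CPM. It was the 1 factor of the 5 tested with higher values in both gemcitabine libraries, and the difference did not pass the test, with a log2 fold change of 0.57 (SE 0.44, edgeR adjusted p = 0.331). In FPKM the gap was wider, 0.113 and 0.157 FPKM in vehicle and 0.535 and 0.512 FPKM in gemcitabine.

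The FPKM of HNF4A thus had a ratio of 3.88 between condition means, where its CPM had a ratio of 1.49. This gap was singled out after the values were seen. It came to 1.38 on the log2 scale, against 0.03 to 0.15 for GATA6, SOX9, FOXA1 and PDX1, and 2.62% of 14567 genes had a gap at least as large in that direction. Dividing the fragments by FPKM and library total gave a length of 6.45 and 4.04 kb for HNF4A in vehicle and of 2.13 and 2.06 kb in gemcitabine. These lengths rest on 10 to 15 fragments a library, and what sets the gap was not tested. A later annotation of hg19 (Gencode v44) lists 17 HNF4A transcripts of 540 to 4739 bases, 4 of them starting at the upstream promoter and 13 at the downstream one. The 6.45 kb of vehicle replicate 1 is longer than any of them.

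**Figure D2:**
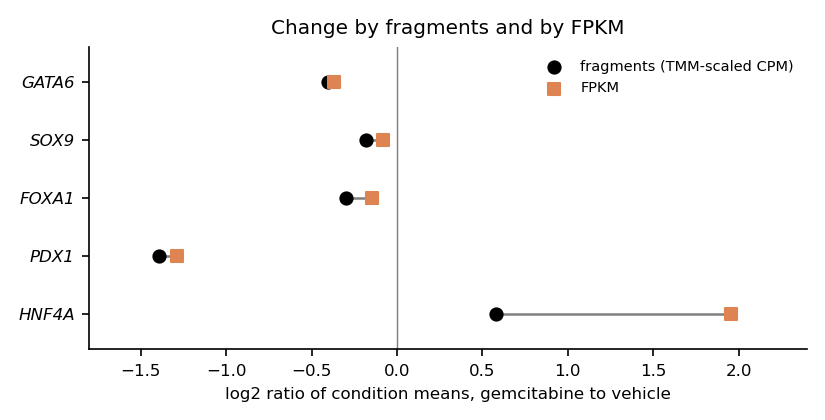
Log2 ratio of gemcitabine to vehicle means for the 5 factors tested, from TMM-scaled CPM (circles) and from FPKM (squares), each point a ratio of means of 2 libraries. Circle and square differ by 0.03 to 0.15 for 4 factors, while HNF4A stands at 0.58 by CPM and 1.96 by FPKM.

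The promoters of both HNF4A start groups are shown because the scales part at this gene, as the 250 bases before the start in RefSeq (GRCh38.p14, plus strand), upstream promoter at chr20:44355449-44355698 and downstream promoter at chr20:44400989-44401238. Capitals mark the motifs searched on both strands, AGATAA for zinc-finger factors such as GATA6, TGTTTAC for forkhead factors and their other site TGTTTGC, CAAAGTCCA for HNF4A, TAATTA for homeodomain factors (a palindrome, so the same on both strands) and ACAATGG for SOX factors. RefSeq promoter entries matched 3 of the 8 genes, GATA6, FOXA1 and HNF4A, and those of PDX1, PTF1A, SOX9, GATA4 and FOXA2 were not used here.
HNF4A upstream promoter: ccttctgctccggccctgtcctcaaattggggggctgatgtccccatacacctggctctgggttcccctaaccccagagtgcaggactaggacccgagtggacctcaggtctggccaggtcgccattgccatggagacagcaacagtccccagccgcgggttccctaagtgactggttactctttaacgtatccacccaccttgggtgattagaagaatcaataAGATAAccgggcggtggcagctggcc
HNF4A downstream promoter: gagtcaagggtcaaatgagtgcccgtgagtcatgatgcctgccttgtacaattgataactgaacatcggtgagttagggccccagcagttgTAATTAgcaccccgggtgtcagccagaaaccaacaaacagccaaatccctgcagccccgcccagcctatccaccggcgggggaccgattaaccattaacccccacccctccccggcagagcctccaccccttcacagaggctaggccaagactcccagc
The upstream promoter held 1 match, AGATAA, which 9.17% of 35116 promoters of this length hold. The downstream promoter held 1 match, TAATTA, found in 4.35% of promoters. The other motifs had no match in these windows, and a match is a description of letters only.

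The remaining 3 factors had next to no RNA. GATA4 (ENSG00000136574.13, chromosome 8, 11534468 to 11617511), the close relative of GATA6, had 0 fragments in both vehicle libraries and in gemcitabine replicate 1 and 1 fragment in gemcitabine replicate 2, or 0.0664 FPKM. FOXA2 (ENSG00000125798.9, chromosome 20, 22561636 to 22566093), the relative of FOXA1, and PTF1A (ENSG00000168267.5, chromosome 10, 23481241 to 23483174), the acinar regulator, had 0 fragments in all 4 libraries. A count of 0 allows up to 3 fragments, which is 0.190 to 0.227 CPM in these libraries before TMM scaling and covers counting error only. No fold was formed for these genes.

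Per length, the factors ranked GATA6, SOX9, FOXA1, HNF4A and PDX1 by their mean over the 4 libraries, at 6.24, 3.53, 1.39, 0.329 and 0.315 FPKM. The lowest GATA6 library, at 5.16 FPKM, was above the highest SOX9 library, at 3.90 FPKM. SOX9 likewise stayed above FOXA1, and FOXA1 above both low genes, while HNF4A and PDX1 overlapped. Within vehicle PDX1 was above HNF4A, and within gemcitabine it was below. None of the 8 was an abundant gene, since GATA6 stood at the 54.2 percentile and PDX1 at the 35.9 percentile of all 20461 genes by mean FPKM.

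The genes with the most similar course over the 4 libraries were taken by the distance between centred log2 CPM, among genes of like level. For PDX1 these were CLEC3A and KLRG1, at distances of 0.22 and 0.29 among 861 genes. For GATA6 they were EID2 and EGLN3, at 0.06 and 0.07 among 1600 genes, and for SOX9 they were RTN4R and KLHL35, at 0.05 and 0.05 among 1622 genes. CAMK2N2 and EFNA2 lay nearest to FOXA1, and GPR146 and SRGAP3 nearest to HNF4A. With 4 libraries the distances describe these libraries only.

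Close relatives of the factors were set beside them, since GATA and HNF4 relatives bind similar sites. Of 8 relatives, 3 were tested, and all 3 fell by edgeR adjusted p, 2 of them also by the study's criteria. GATA2, a factor known from blood, had 1651 and 1638 fragments in vehicle and 1054 and 1192 in gemcitabine. It fell by 0.44 on the log2 scale (SE 0.08, edgeR adjusted p = 0.000469), and at 39.9 FPKM it stood above GATA6 in mean level. GATA3 held 149 and 137 fragments against 79 and 68, and fell by 0.85 (SE 0.17, edgeR adjusted p = 0.00144). HNF4G, the relative of HNF4A, held 82 and 104 fragments against 52 and 34, and fell by 1.00 (SE 0.24, edgeR adjusted p = 0.00407). GATA1, GATA5, FOXA3, SOX8 and SOX10 had 4-library means of at most 0.0422 FPKM, and the highest single library was FOXA3 at 0.131 FPKM with 1 fragment.

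Among 14 other progenitor and duct factors, 12 were tested, 4 fell by edgeR adjusted p and none rose. HES1, a target and effector of Notch, held 650 and 680 fragments in vehicle and 302 and 295 in gemcitabine, and fell by 1.04 on the log2 scale (SE 0.09, edgeR adjusted p = 7.49e-07). It was the 1 gene of this list that met the study's criteria. The others that fell were TEAD1, ONECUT2 and MEIS1, by 0.44, 0.39 and 0.29. KLF5 and TEAD1 were abundant, at 70.3 and 70.1 FPKM. The median log2 fold change of the list was -0.11 beside 0.01 for all genes tested, and with library totals in place of TMM it was -0.0026 beside 0.12, with 3 genes lower.

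Acinar factors showed 0 of 7 genes higher and 2 lower by edgeR adjusted p, NR4A1 and TCF3, an E-protein partner of PTF1A. NR4A1, an immediate early receptor, fell by 0.66 (SE 0.07, edgeR adjusted p = 7.33e-06). The most abundant genes of the acinar list were TCF12, NR4A1 and TCF3, at 273, 213 and 197 FPKM. By contrast, RBPJL had no fragment in any library, and BHLHA15 stood at 4.15 FPKM. The median log2 fold change of the list was -0.27. Among 15 endocrine factors 5 were tested and 2 rose by edgeR adjusted p, beside 18.5% of all genes tested. PAX6 was among them and rose by 0.29 (SE 0.08, edgeR adjusted p = 0.0143). NEUROG3, NKX2-2, PAX4 and RFX6 had no fragment in any library. PAX6 and ISL1 led this list, at 39.5 and 2.38 FPKM, and its median log2 fold change was 0.29. Of 8 cofactors tested among 11, PPARGC1A, a coactivator that works with HNF4A in liver, fell by 0.73 (SE 0.12, edgeR adjusted p = 0.000314), and the other 7 did not pass the test. RBPJ, a partner of PTF1A, stood at 22.7 FPKM, and the median log2 fold change was -0.09 with TMM and 0.02 with library totals.

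**Figure D3:**
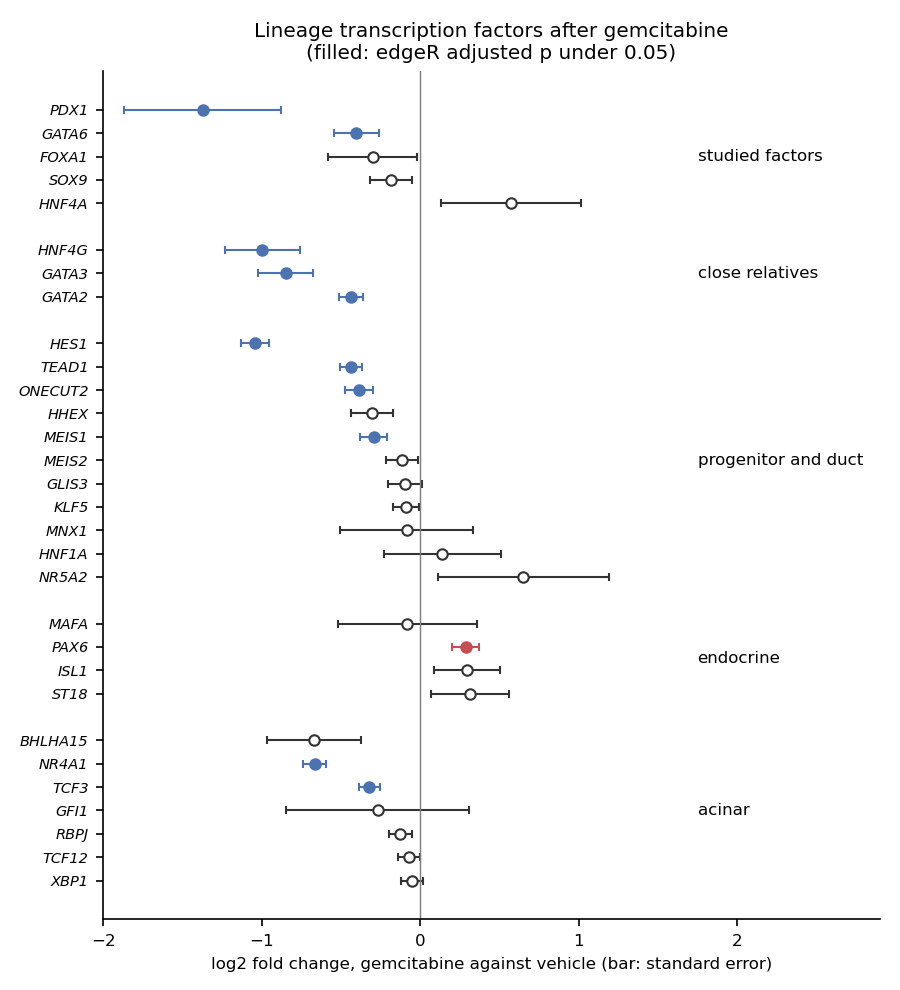
Log2 fold changes of gemcitabine against vehicle with standard errors for the lineage factors, their relatives and other pancreatic factors tested by edgeR, 2 libraries per condition; filled points have an adjusted p under 0.05. PDX1, GATA6 and all 3 relatives lie left of 0, and PAX6 is filled on the right; some genes of the lists are not drawn.

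Products of the lineages these factors serve were described next. Of 17 duct products tested, 11 rose and 1, KRT7, fell by edgeR adjusted p, and their median change was 0.44 on the log2 scale. By the same rule 18.5% of all genes tested rose and 20.0% fell. KRT7 fell by 0.18 and no longer passed with library totals in place of TMM. By the study's criteria 4 rose, namely AQP1, a water channel, by 1.91, KRT19 by 1.13, PROM1 by 0.76 and TSPAN8 by 0.69. SOX9 is known as a duct factor, and its own log2 fold change was -0.18. Of 7 acinar products tested, 2 rose and 1 fell, and the median change was 0.23 on the log2 scale. In mean level AMY2B stood at 1.48 FPKM and CUZD1 at 0.314 FPKM. SPINK1, which was not tested, lay between them at 0.402 FPKM, but it had at most 1 fragment in any library and its mean rests on the 1.26 FPKM of gemcitabine replicate 1. AMY2B, an amylase, fell by 0.76 from 138 and 135 fragments to 68 and 81, and the value of CEL came from 11 fragments in gemcitabine replicate 1 alone. Of 5 endocrine products tested 0 passed by edgeR adjusted p, with a median of 0.13, and PCSK1, PCSK2 and ABCC8 were the most abundant. With library totals 1 of them, PCSK1, was higher.

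**Figure D4:**
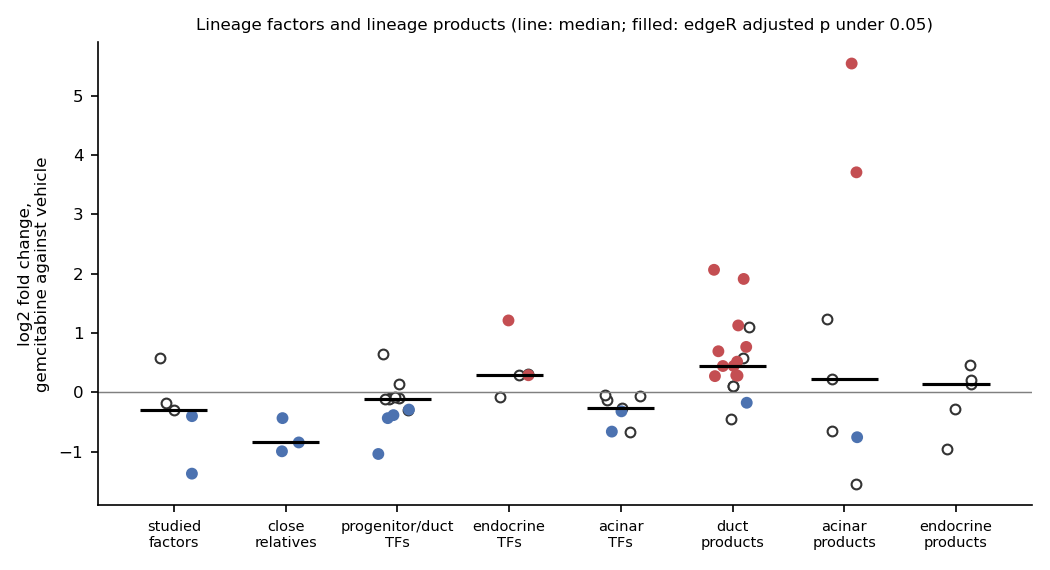
Log2 fold change of each tested gene of 8 lists, with the list's median as a line; filled points have an edgeR adjusted p under 0.05. The median lies at -0.30 for the studied factors, at -0.85 for the 3 relatives and at 0.44 for duct products; the highest acinar point is CEL, whose vehicle libraries are at 0, so its height depends on the prior count of the fit.

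Open chromatin was then examined around the 8 genes, with 9606 DNaseI peaks in vehicle and 10695 in gemcitabine and no replicate of either. No annotated start of any of the 8 genes had a peak within 1000 bases in either condition. Of all genes tested, 29.1% in vehicle and 33.6% in gemcitabine had one. For genes of 0.1 to 10 FPKM, a class picked after the values were seen, these shares were 18.2% and 22.6%. GATA6, SOX9 and FOXA1 thus had RNA in every library and no called peak at their starts at this depth. The authors also used ENCODE DNaseI peaks of PANC1 to raise sensitivity, and those were not examined here.

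Within 5000 bases, HNF4A had the only peak, in vehicle, at chr20:43026655-43027549 with a score of 70.94, where the score is a multiple of the negative log10 of the MACS p-value. It lay inside the gene, and its centre was 2777 bases before the nearest downstream start. The gemcitabine list held no peak there. GATA6 had a single region called in both conditions, about 113 kb past its start and with no protein-coding gene in it. Its peak scored 73.39 in vehicle and 109.11 in gemcitabine, and whether the scores differ was not tested. In gemcitabine alone GATA6 had 2 further peaks, 137 and 189 kb before its start, with scores of 51.81 and 55.23.

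The central 300 bases of both peaks are shown (hg19, plus strand, motifs in capitals), as the regions nearest to HNF4A and GATA6. The GATA6 region is chr18:19862629-19862928, from the gemcitabine peak, and the HNF4A region is chr20:43026953-43027252, from the vehicle peak.
GATA6 region: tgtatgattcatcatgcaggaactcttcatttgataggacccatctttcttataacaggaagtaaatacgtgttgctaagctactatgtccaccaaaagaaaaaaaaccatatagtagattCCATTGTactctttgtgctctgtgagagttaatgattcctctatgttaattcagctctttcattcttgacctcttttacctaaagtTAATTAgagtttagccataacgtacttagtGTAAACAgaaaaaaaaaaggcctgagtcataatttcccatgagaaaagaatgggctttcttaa
HNF4A region: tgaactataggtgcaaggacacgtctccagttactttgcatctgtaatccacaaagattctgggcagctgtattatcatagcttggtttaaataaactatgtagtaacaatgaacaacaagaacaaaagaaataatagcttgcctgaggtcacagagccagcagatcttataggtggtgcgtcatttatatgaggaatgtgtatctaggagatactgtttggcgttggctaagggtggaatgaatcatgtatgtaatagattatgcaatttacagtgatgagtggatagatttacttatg
The GATA6 region held ACAATGG and TGTTTAC, both on the minus strand, and TAATTA, which were found in 2.9%, 5.55% and 7.38% of gemcitabine peaks. The HNF4A region held none of the 6 motifs.

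The other genes had peaks only at a distance, if at all. PDX1 had none within 200 kb in vehicle and 2 in gemcitabine, 79.8 kb before its start with a score of 114.91 and 103 kb past it, inside FLT3, with a score of 51.45. The first lay nearer to the start of GSX1 than to that of PDX1. FOXA2 had 1 peak in gemcitabine, 115 kb before its start, while SOX9 and FOXA1 had none within 200 kb in either condition. PTF1A had 4 peaks in each condition and HNF4A 6 in vehicle and 5 in gemcitabine, many of them at the starts of neighbours such as MSRB2, FITM2 and SERINC3. GATA4 had 3 peaks in vehicle and 1 in gemcitabine, of which the peak about 87 kb before its start was called in both.

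**Figure D5:**
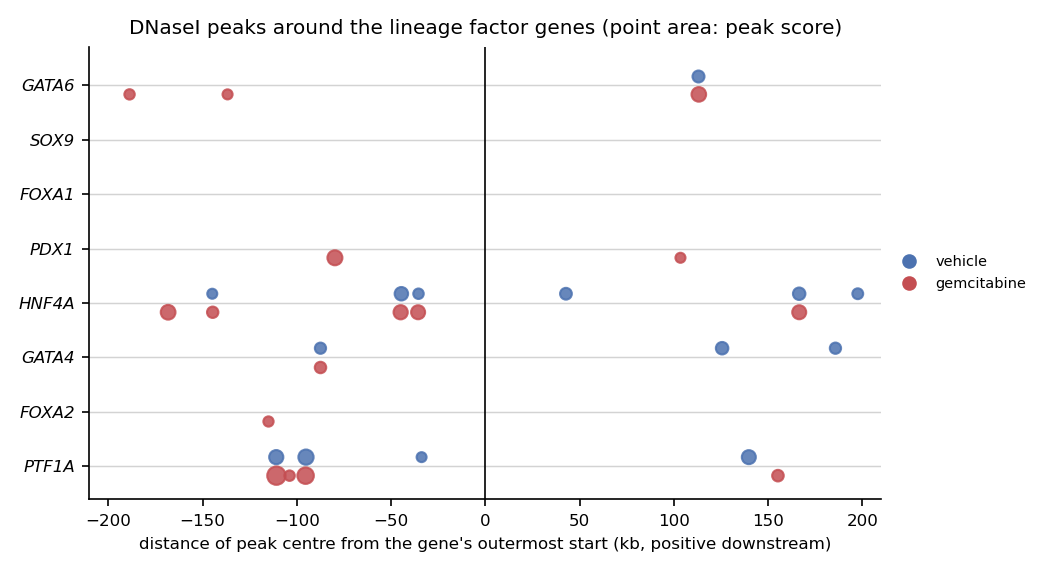
Distance in kb of DNaseI peak centres from the outermost start of each gene, with vehicle above and gemcitabine below each line; point area follows the peak score. No point lies at 0, SOX9 and FOXA1 have none in the 200 kb shown on each side, and GATA6 has its shared region at 113 kb.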

How the data were processed

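The authors mapped the RNA-seq reads (single-end, hg19) by TopHat2 2.0.8 and quantified protein-coding Gencode genes by Cuffdiff 2.0.2. The deposited table holds estimated counts (fragments per gene and library) and FPKM; 2 further columns of scaled values were not used. For DNaseI-seq the authors called MACS peaks per condition, and the deposited score is a multiple of the negative log10 of the p-value. The kit keeps no strand.

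Estimated counts were rounded. Every gene whose 4 libraries summed to 10 or more fragments entered edgeR 4.0.16 (quasi-likelihood, TMM, Benjamini-Hochberg over all genes tested). P-values measure the spread between 2 biological replicates per condition. The SE given with an edgeR change was derived from the test, as the absolute log2 fold change divided by the square root of its F statistic. Alternatives were DESeq2 1.42.0, other scalings and filters, limma 3.58.1 on log2 FPKM and each library left out. limma was run with and without a variance trend, and the fits with the trend were made the standard ones after the call counts of both had been seen; the fits without it were added at that point. On counts simulated from these libraries, edgeR recovered 92% of 200 genes changed 2-fold, with 4.17% of its calls false. The fit of DESeq2 recovered 88%, limma 93% with the trend and 85% without, all by adjusted p under 0.05 alone. In this trial limma was given simulated CPM and not FPKM, so its shares do not describe the limma fits on FPKM. The changed genes were drawn only from genes with more fragments than PDX1 or HNF4A had. These shares therefore do not cover genes as low as PDX1 and HNF4A.

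The 8 genes, the gene lists, motifs and printed regions were chosen with earlier results of these data known. From each list, genes meeting the study's criteria (up to 6) and the 3 most abundant were to be named, and for each factor tested the 2 genes of most similar course; others were named after their values were seen. A few list genes are counted but not reported here by name. Starts came from Gencode v44 on hg19 and sequences from hg19 or RefSeq. Libraries are numbered by the table's index, which the labels do not tie to their replicate numbers.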

Additional observations from a re-analysis of the deposited data

How the results depend on the processing

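No member gene met the study's criteria under any alternative other than adjusted p alone, which called 2, both lower. PDX1 and HNF4A were under 1 FPKM in every library. No setting that kept the needed difference of 1 FPKM could therefore call them. For PDX1, 15 alternatives gave log2 fold changes of -1.62 to -0.29 (-1.62 to -1.15 from counts; the added 1 FPKM shrinks the change of so low a gene) and an adjusted p under 0.05 in 2; for GATA6 they were -0.55 to -0.23, with 3. With library totals the adjusted p was 0.0555 for PDX1 and 0.116 for GATA6, and the median of all genes moved from 0.01 to 0.12. SOX9, FOXA1 and HNF4A had none under 0.05, and no direction reversed; the nearest was HNF4A by limma without a variance trend on log2(FPKM + 1), at an adjusted p of 0.0512. The cause of these shifts was not tested.

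Over all genes, 1501 were called, 845 higher and 656 lower, and adjusted p alone called 5726. limma on all genes called 0 on log2(FPKM + 1) and 0 on log2(FPKM + 0.1), where 4689 and 4716 had an unadjusted p under 0.05. Without the variance trend, which was added after seeing the data, the same fits called 296 (221 higher, 75 lower) and 0, the latter with 4665 at an unadjusted p under 0.05. On genes of at least 0.1 FPKM they called 1220 with the trend and 1110 without. edgeR with library totals put 73.6% of calls higher, against 56.3% with TMM. Leaving out each library gave 1268 to 1694 calls.

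A mean of at least 0.1 FPKM was reached by 5 of the 8 genes and of 1 FPKM by 3. Starts with an open region numbered 0 within 1000 bases and 1 gene's within 5000 bases. No paired analysis was possible because nothing ties the table's library index to the labels' replicate numbers. Low fragment counts limit PDX1 and HNF4A, and single DNaseI libraries limit all peak comparisons.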

Other observations

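Gene sets of the classical and basal-like states of pancreatic tumours were described after the factors, with the same fit. Of 26 classical genes matched, 11 were tested, and 4 were higher and 0 lower by the study's criteria, with a median log2 fold change of 0.86, also with S100P at its lower bound. MUC13, a membrane mucin, had 535 and 551 fragments in vehicle and 901 and 918 in gemcitabine, and rose by 0.86 (SE 0.08, edgeR adjusted p = 1.3e-06). ANXA10 rose by 0.95 and SLC40A1, the iron exporter, by 0.74, while S100P had 0 fragments in both vehicle libraries and 7 and 4 in gemcitabine. MUC13, SLC40A1 and ANXA10 were the most abundant, at 20.4, 3.97 and 2.88 FPKM. TFF1, CEACAM6 and CTSE had none in any library.

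Of 29 basal-like genes matched, 20 were tested, and 4 were higher and 0 lower by the study's criteria, with a median of 0.77. KRT15 rose by 2.29, TNS4 by 1.03, S100A2 by 0.94 and FGFBP1 by 0.81. KRT17, the most abundant at 1414 FPKM, fell by 0.26 (edgeR adjusted p = 0.00642) and was not called, and VIM and SLC2A1 followed at 434 and 134 FPKM. Of the factors known as marks of the classical state, GATA6 and PDX1 fell by 0.40 and 1.37 in the same fit (edgeR adjusted p = 0.0346 and 0.0397). Neither met the study's criteria, and the DESeq2 adjusted p was 0.163 for GATA6 and 0.240 for PDX1. HNF4A had a log2 fold change of 0.57 (edgeR adjusted p = 0.331).

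Markers of other cell types were at 0 or low for most genes. CD3E, LYZ and ALB had no fragment in any library, and PTPRC had 4 and 2 fragments in vehicle and 9 and 5 in gemcitabine. COL1A2 had 0 and 3 fragments in vehicle and 3 and 0 in gemcitabine, and CDH5 0 and 3 against 0 and 2. PDGFRA had 1 fragment, in gemcitabine replicate 1, while DCN stood at 4.39 FPKM. Of 7 tested, 2 were higher by the study's criteria, CD68 by 0.94 and LUM by 0.77. By edgeR adjusted p 4 of the 7 were higher and 0 lower, beside 18.5% and 20.0% of all genes tested. The others were VWF, which rose by 2.01 from 8 and 9 fragments to 34 and 30, and ACTA2, which rose by 0.53. ACTA2 and CD68 stood at 72.1 and 16.6 FPKM, and COL1A1 at 955 FPKM with a log2 fold change of 0.03 (edgeR adjusted p = 0.739). The summed FPKM of the 13 markers matched was 941 and 942 in vehicle and 1116 and 1219 in gemcitabine, most of it COL1A1. Without COL1A1 it was 76.7 and 74.5 in vehicle and 129 and 119 in gemcitabine. Their part in the values of the lineage factors was not tested.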
